A study of Mus with 7 samples.

Results

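Fetal liver-derived macrophages (FLMs) that had taken up docosahexaenoic acid (DHA) for 24 h without lipopolysaccharide (LPS) differed widely in Plin2, the transcript of the lipid droplet coat protein perilipin-2, and the cells at both ends of that spread were compared here. The compared cells were chosen by their Plin2 values: the 698 DHA.LPS.0 cells with over 20000 UMIs, at least 2000 genes and under 20% mitochondrial UMIs were ranked by Plin2 UMIs over all UMIs of the cell, with ties in file order. The 174 cells of the top 25% (the Plin2-high set) and the 174 of the bottom 25% (the Plin2-low set) made up 348 of these 698 cells, and of 11640 cells that met the same limits in the 7 libraries. A UMI, or unique molecular identifier, marks 1 captured RNA molecule, and values are CPM, the UMIs of a gene summed over a set of cells and scaled so that every set has the same total.

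FLMs are macrophages grown from wild-type mouse fetal liver with GM-CSF at 30 ng/mL, here as passaged cultures in which every library received GM-CSF. Con cells were kept in 10% FBS and collected before any treatment. All other cells were kept in 0.25% FBS for 24 h, either with 25 µM DHA on 8.3 µM BSA (DHA) or with 8.3 µM BSA alone (Veh), and were then collected at once (LPS.0) or after 1 or 4 h of LPS at 20 ng/mL (LPS.1, LPS.4). Each condition was 1 droplet library, so the DHA.LPS.0 comparison has no replicate, its intervals cover counting error only, and no p-value is given for it.

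Lipid droplets store triglyceride and sterol ester in a neutral core under a single layer of phospholipid, and perilipin-2 is the coat protein that most cells, macrophages included, place on that surface. Its transcript is induced by fatty acids through nuclear receptors of the PPAR family, and the protein is degraded when it is not bound to a droplet. Macrophages that fill with droplets are known as foam cells, and polyunsaturated fatty acids are known to lower the processing of SREBP, the factor that drives fatty acid and sterol synthesis genes.

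Plin2 (ENSMUSG00000028494, mm10 chr4:86626910-86670217) spanned a wide range within the DHA.LPS.0 library. Single cells of the Plin2-high set ran from 445 CPM through a median of 744 to 5111 CPM, and those of the Plin2-low set ran from 0 through a median of 53.6 to 98.5 CPM, with 13 cells without a Plin2 UMI. The summed cells held 1090 CPM in the high set, 328 and 159 CPM in the next sets of 25%, and 52.1 CPM in the low set. The cell just inside the top set had 445.1 CPM from 11 UMIs and the cell just outside it had 443.3 CPM from 23 UMIs. At the bottom, the values were 98.46 CPM from 4 UMIs inside and 98.49 CPM from 7 UMIs outside. The sets are thus ends of a continuous range. The ratio of the sets was 20.9 (95% interval 19.0 to 23.1), a value the ranking itself fixes. When cells were ranked on a random part of their UMIs and Plin2 was measured in the UMIs left over, the ratio was 12.7 (11.4 to 14.2).

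**Figure D1:**
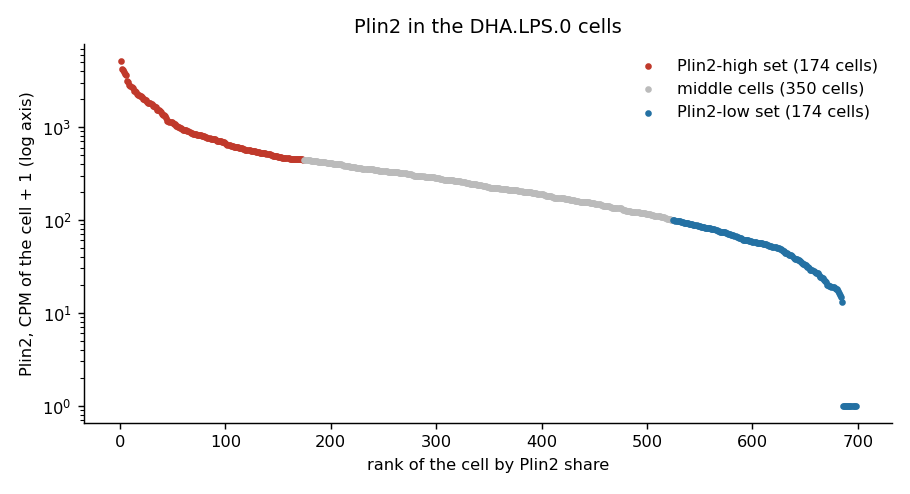
Plin2 level (CPM plus 1, log axis) of each of the 698 DHA.LPS.0 cells in order of rank, with the Plin2-low and Plin2-high sets of 174 cells each in colour and the 350 cells between them in grey. The values slope down from 5111 CPM with no step at the edge of either set, and the 13 cells without a Plin2 UMI lie apart at the bottom right.

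Both sets held macrophage markers at like depth. Median UMIs per cell were 48611 in the high set (22319 to 145785) and 44596 in the low set (21248 to 250525), with medians of 6009.5 and 6128 genes and of 6.36% and 7.92% mitochondrial UMIs. Each of the 348 cells held at least 3 of 9 macrophage markers, whose summed level was 4892 CPM in the low set and 6544 CPM in the high set. Lyz2, the lysozyme gene, was at 1468 and 2287 CPM and Cd68 at 382 and 589 CPM. The median log2 ratio of the 9 markers was 0.45, and 0.03 with cells ranked within 10 bins of mitosis share, a choice described below. In neither set did a cell hold 3 lymphoid, dendritic cell, stromal, hepatocyte, erythroid, mast cell or neutrophil markers. The share seen was thus 0 of 174 cells in each set. Taking 3 cells over 174 as an approximate upper limit for the cells that a set was drawn from gives 1.72%. A cell of another type with fewer than 3 of its markers detected would not be counted. The 7 neutrophil and 6 mast cell markers were at 0 in both sets, and the erythroid, stromal, dendritic cell and lymphoid lists each summed to at most 1.65 CPM in either. The 7 hepatocyte markers summed to 3.42 CPM in the low set and 11.0 CPM in the high set, nearly all of it Afp, with Alb, Apoa1, Serpina1a and Ttr at 0 in both. The part of these transcripts in the results was not tested. Of 10 genes typical of alveolar macrophages, which GM-CSF is known to support, 6 were at 0 in both sets (Marco, Chil3, Pparg, Siglecf, Ear2 and Car4). In the test over the 6 other libraries described below, 4 of the 10 could be tested. Of these, 2 were called higher and none lower, where 14.8% of all genes were called higher. The list's median log2 ratio in these libraries ran from 0.20 to 2.98.

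The libraries differed in how many cells passed. Of 3773 DHA.LPS.0 barcodes, 76.4% had 20% or more mitochondrial UMIs, so that the 698 cells were a minority of the barcodes. That share was 74.4% in DHA.LPS.1 and 80.0% in DHA.LPS.4. It was 29.0% in Con and 37.8%, 35.8% and 54.7% in Veh at 0, 1 and 4 h, lower than in any DHA library. No cell barcode that passed was shared between DHA.LPS.0 and another library, where 1 to 17 barcodes were shared before the limits. Over all cells that passed, Plin2 was lowest in Con (33.3 CPM), ranged from 68.0 to 84.2 CPM over the 3 Veh libraries, and was highest in DHA.LPS.0 (419 CPM), DHA.LPS.1 (530 CPM) and DHA.LPS.4 (728 CPM). The median cell held 11 Plin2 UMIs in DHA.LPS.0 and 12 and 18 in the other DHA libraries, but 1 to 3 in Con and Veh. The sets of Con and Veh cells therefore rest on very few Plin2 UMIs per cell. In Con 1041 cells had no Plin2 UMI, and file order alone set which 727 of them made the low set. Cells without a Plin2 UMI made up 69.7% of the low set in Veh.LPS.0, 92.2% in Veh.LPS.1 and 43.1% in Veh.LPS.4. High and low are thus relative to each library. Summed Plin2 of the high set was 86.0 CPM in Con and 153, 168 and 193 CPM in Veh at 0, 1 and 4 h. It was 1332 CPM in DHA.LPS.1 and 1537 CPM in DHA.LPS.4. The low set of DHA.LPS.4, at 222 CPM, lay above the high sets of Con and Veh.

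Of 6576 genes other than Plin2 that were detected in 50% or more of the cells of 1 or both sets, 481 (7.31%) were more than 1.5-fold higher and 900 (13.7%) more than 1.5-fold lower in Plin2-high cells. At the smaller limit of 0.32 on the log2 scale, 935 (14.2%) were higher and 2152 (32.7%) lower. By sign alone, 2317 genes (35.2%) were higher and 4259 lower. List members needed only 10 UMIs in both sets together. At that limit 1169 of 10966 genes were past 1.5-fold higher and 1954 past it lower, larger shares than with the limit on cells. Counts of list members past 1.5-fold stand against these larger shares. Counts of members merely higher or lower stand against the split by sign, which was taken with the limit on cells. The median log2 ratio of all genes was -0.15, and the values below stand relative to that shift. With TMM scaling the median was 0.00 and the split at 1.5-fold turned to 692 higher and 528 lower, so that 56.7% of the genes past the limit were higher in place of 34.8%. Under TMM scaling the medians of the triglyceride synthesis, fatty acid oxidation and sterol control lists changed sign, and all other list medians given here kept theirs.

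The same ranking was then repeated in the 6 other libraries, none of whose cells had chosen the DHA.LPS.0 sets. Summed UMIs of their high and low sets were tested with edgeR's quasi-likelihood test with the library as a block, Plin2 left out and p-values adjusted by Benjamini-Hochberg over 10833 genes. The 6 libraries are different treatments and not replicates of a condition, so that a call says that a gene moved with Plin2 on average over them. It does not say that the gene moved in each. Ccl5, called higher, had a log2 ratio of -0.34 in Con, and Kbtbd11, called lower, had 0.01 in Con and 0.05 in Veh.LPS.4. This test called 1602 genes (14.8%) higher and 1495 (13.8%) lower in Plin2-high cells at an adjusted p under 0.05. Counts of called list members stand against these shares of all genes. Of the 481 genes higher in DHA.LPS.0, 412 were called higher (85.7% of them and 25.7% of the 1602), and of the 900 lower, 592 were called lower (65.8% of them and 39.6% of the 1495). None of these 481 and 900 genes was called in the other direction, while Cxcl16, which did not reach the limit on cells, was higher in DHA.LPS.0 and called lower. Below, "called" refers to this test, and adjusted p-values are from it.

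Genes of lipid droplets and their lipases were mixed, with 2 past 1.5-fold higher and 1 past it lower. Of 20 list members, 9 had no UMI, among them Plin1, Plin5, Cidea, Cidec and G0s2, and 7 of the 10 with enough UMIs were higher and 3 lower, with a median log2 ratio of 0.27. Hilpda, an inhibitor of the lipase ATGL, went from 15.4 CPM in Plin2-low cells to 63.1 CPM in Plin2-high cells, a ratio of 4.08 (3.37 to 4.98). Its log2 ratio was 0.09 in Con, 0.35, 0.79 and 0.73 in Veh at 0, 1 and 4 h, and 1.45 and 1.02 in DHA at 1 and 4 h, positive in all 6 libraries. Abhd5, the co-activator of ATGL, was at 26.9 and 49.96 CPM, and Fitm2, which helps droplets bud from the endoplasmic reticulum, was at 8.37 and 4.81 CPM. Over the 6 libraries 5 members were called higher (Hilpda, Abhd5, Plin3, Pnpla2 and Hsd17b11) and none lower. Pnpla2, the gene of ATGL itself, lost its call without Con or Veh.LPS.1 and Hsd17b11 lost it without Veh.LPS.0 or Veh.LPS.1.

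Genes that esterify fatty acids did not move together. Of 17 members, 4 were past 1.5-fold higher in Plin2-high DHA.LPS.0 cells (Dgat2, Gpat3, Agpat4 and Soat1) and 2 past it lower (Lpin1 and Acsl5), with Dgat2 resting on 2 and 10 UMIs. Soat1, which makes cholesteryl ester, was at 99.3 and 150 CPM and was called higher over the 6 libraries, by 0.42 on the log2 scale (adjusted p = 0.0108). Gpat3 was called higher as well but lost the call in 4 of the 6 fits that each left out 1 library, and Acsl5 and Agpat5 were called lower. These 2 higher and 2 lower of 17 lie near the shares called of all genes, 14.8% and 13.8%. Among genes of fatty acid uptake and oxidation, the median log2 ratio of 27 members was 0.00, and oxidation enzymes such as Acadl, Hadha and Acadm had ratios from 0.84 to 1.11. The 3 members past 1.5-fold were all higher. Acot2, a mitochondrial acyl-CoA thioesterase, went from 4.36 to 20.7 CPM. Cd36, the fatty acid and scavenger receptor, went from 24.0 to 110 CPM, a ratio of 4.59 (3.94 to 5.36), with 49.9% of its Plin2-high UMIs in 10 cells. Slc25a20, the carnitine carrier, went from 4.60 to 7.22 CPM. Acot2 (adjusted p = 0.00404) and Cd36 (adjusted p = 0.00525) were called higher over the 6 libraries, as was Fabp4, a fatty acid chaperone with 0 and 9 UMIs in DHA.LPS.0. These were 3 of 28 tested members, a share below the 14.8% of all genes called higher.

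Fatty acid synthesis went the other way. All 12 measured members of the fatty acid synthesis and desaturation list were lower in Plin2-high DHA.LPS.0 cells, 9 of them past 1.5-fold, and the summed list stood at 715 CPM in the low set, 577 and 515 CPM in the sets between and 340 CPM in the high set. Scd2 (chr19:44293676-44306864), a stearoyl-CoA desaturase that makes monounsaturated fatty acids, went down in steps across the sets from 297 through 186 and 134 to 61.5 CPM, a ratio of 0.207 (0.189 to 0.227). Single cells had a median of 261 CPM in the low set and 44.8 CPM in the high set. Its log2 ratio was -0.12 in Con, -0.35, -0.31 and -0.16 in Veh at 0, 1 and 4 h, and -1.77 and -1.29 in DHA at 1 and 4 h, so that both DHA libraries lay well below the 4 others. Scd1, its paralog, was at 16.03 and 1.09 CPM from 136 and 10 UMIs. The others past 1.5-fold were Acss2 (6.13 to 1.64 CPM), Fads2, Elovl6, Acly, Acaca, Fasn and Srebf1, the last of these the gene of SREBP-1 itself. In the other libraries 5 members were called lower (Scd2, Elovl6, Acaca, Fasn and Fads1) and none higher. Of these 5 calls, 3 held without Veh.LPS.1, Veh.LPS.4 or DHA.LPS.4, and the call of Scd2 (adjusted p = 0.0465) was lost without Veh.LPS.0, Veh.LPS.1, Veh.LPS.4 or DHA.LPS.4.

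All 20 enzymes of cholesterol synthesis were lower in Plin2-high DHA.LPS.0 cells, 16 of them past 1.5-fold, with a median log2 ratio of -0.83 and a summed level of 1697 CPM in the low set and 946 CPM in the high set. Acat2, which forms acetoacetyl-CoA, went from 56.3 to 16.4 CPM, a ratio of 0.291 (0.241 to 0.350). Hmgcs1, the synthase of HMG-CoA, went from 83.7 to 43.0 CPM. Fdps went from 449 to 230 CPM and Idi1 from 123 to 63.7 CPM. Others past the limit included Pmvk, Lss, Mvd, Mvk, Dhcr7, Cyp51, Fdft1, Nsdhl, Tm7sf2 and Sqle, and the 4 short of it were Msmo1, Hsd17b7, Ebp and Sc5d, with ratios of 0.674 to 0.877. The sets between, at 1693 and 1452 CPM, lay nearer to the low set than to the high one. The test called 18 of the 20 lower, with Dhcr7 among those not called, and 15 of these calls held in all 6 fits that left out 1 library. The list median was negative in every library, from -0.03 in Con to -0.998 in DHA.LPS.1. The median of all genes was -0.03 in Con as well, so the list did not stand below all genes there. In DHA.LPS.1 the median of all genes was -0.15.

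Of 10 measured genes of sterol control and LDL uptake, 4 were past 1.5-fold lower, among them Stard4, Insig1 and Srebf2, and 2, Npc1 and Insig2, past it higher. Npc1, which exports cholesterol from lysosomes, went from 23.5 to 48.5 CPM and was called higher by 0.74 on the log2 scale (adjusted p = 0.00309), together with Npc2 and Insig2, while 4 members were called lower, among them Stard4, Insig1 and Srebf2. Of these 7 calls, 4 held without Veh.LPS.1. Of 7 measured LXR targets and efflux genes, only Nceh1, a hydrolase of cholesteryl ester, was past 1.5-fold higher in DHA.LPS.0, at 61.9 and 149 CPM, and it was the only member called (log2 1.01, adjusted p = 0.00126). Mylip, Abcg1 and Apoe were past 1.5-fold lower, with Apoe at 8 and 4 UMIs, and Abca1 had 1 and 0 UMIs.

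NRF2 targets, most of them antioxidant genes, were mainly higher. The 19 measured NRF2 targets summed to 3646 CPM in the low set and 5500 CPM in the high set, with 7 past 1.5-fold higher and 1, Gclc, past it lower. Their median log2 ratio was 0.22, and 0.08 with cells ranked within 10 bins of mitochondrial share, a choice described below. Sqstm1 (chr11:50200152-50210820), the autophagy receptor p62, went from 98.2 through 150 and 244 to 629 CPM, a ratio of 6.40 (5.95 to 6.89), and the median single cell went from 78.8 to 444 CPM. Hmox1, heme oxygenase-1, went from 72.5 through 121 and 152 to 332 CPM, a ratio of 4.58 (4.196 to 5.0005). Its log2 ratio was 1.19 in Con, 1.03, 1.22 and 2.096 in Veh at 0, 1 and 4 h, and 1.68 and 2.11 in DHA at 1 and 4 h. Slc7a11, the cystine importer, went from 19.2 to 64.5 CPM, Srxn1 from 16.3 to 47.9 CPM, Prdx1 from 912 to 1980 CPM, Gclm from 92.7 to 174 CPM and Cat from 42.8 to 81.9 CPM. Of the 19, 12 were called higher, led by Hmox1 (log2 1.59, adjusted p = 0.000351), and Txn1 was called lower. Of these 13 calls, 8 held in all 6 fits that left out 1 library, with 8 left without Veh.LPS.1. Nqo1, a textbook NRF2 target, had 1 UMI in both sets together.

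The 12 iron and metal genes summed to 26191 CPM in the low set and 57387 CPM in the high set, a ratio of 2.19. Fth1, the ferritin heavy chain, was at 12572 and 31654 CPM, with a ratio of 2.52 (2.50 to 2.54), and Ftl1, the light chain, at 12742 and 24424 CPM, although both have near-identical pseudogene copies. In single cells the 10th percentile of Fth1 in the high set, 17186 CPM, lay close to the 90th percentile of the low set, 17885 CPM. Slc40a1 (chr1:45908070-45926532), ferroportin, the iron exporter, went from 7.66 through 16.4 and 22.02 to 105 CPM, a ratio of 13.7 (10.7 to 17.9), with a UMI in 34 low and 114 high cells. Its log2 ratio was 1.02 in Con, 2.27, 2.83 and 4.09 in Veh at 0, 1 and 4 h, and 3.25 and 4.57 in DHA at 1 and 4 h, where Con was the lowest and both 4 h libraries the highest. Slc11a1, an endosomal metal transporter, went from 23.7 to 46.1 CPM and Mt2, a metallothionein, from 190 to 330 CPM. Over the 6 libraries 7 of 12 iron and metal genes were called higher, Slc40a1 by 2.69 on the log2 scale (adjusted p = 0.00126), and Tfrc, the transferrin receptor, was called lower.

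Stress genes of the ATF4 and CHOP branch were mostly higher as well. Of 19 members, 15 were higher, 7 of them past 1.5-fold, and none was past it lower. The median log2 ratio was 0.37, and 0.18 with cells ranked within 10 bins of mitochondrial share. Ddit3, the gene of CHOP, went from 32.4 through 50.7 and 105 to 209 CPM, a ratio of 6.43 (5.67 to 7.33). Ppp1r15a, which restarts translation, went from 14.03 to 94.1 CPM, Atf3 from 19.8 to 124 CPM, Trib3 from 13.7 to 54.2 CPM, Slc3a2 from 156 to 279 CPM, Atf5 from 46.7 to 72.7 CPM and Chac1 from 4.48 to 8.42 CPM. Ddit3 was called higher over the 6 libraries by 1.17 on the log2 scale (adjusted p = 0.00248), in a total of 8 members called higher. The 3 called lower, Psat1, Shmt2 and Mthfd2, are enzymes of serine synthesis and one-carbon metabolism, and none of the 3 was called when cells were ranked within bins of mitosis share, a choice described below. The chaperone list lay nearer to all genes. Of 16 ER chaperone and unfolded protein response genes 12 were lower in DHA.LPS.0, as were 4259 of all 6576 genes. Past 1.5-fold higher were 2, Hspa5 (1097 to 1956 CPM, 45.8% of the high set's UMIs in 10 cells) and Dnajb9 (5.78 to 12.9 CPM). The list's median log2 ratio was -0.23 in DHA.LPS.0, against -0.15 for all genes. It was 0.14 in the fit over the 6 libraries, which used TMM scaling, against -0.0053 for all genes tested there. That fit called 4 members higher and none lower. Without Veh.LPS.0, Veh.LPS.1, Veh.LPS.4 or DHA.LPS.4, 2 of these calls were left.

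Lysosomal genes were mostly higher. Of 26 members 24 were higher in Plin2-high DHA.LPS.0 cells, 14 past 1.5-fold, and the sum went from 6080 through 7217 and 8327 to 11274 CPM. Ctsd, the aspartic protease cathepsin D, was at 390 and 1298 CPM, with a ratio of 3.33 (3.21 to 3.46), and its log2 ratio in the 6 other libraries ran from 0.69 in Con to 1.35 in DHA.LPS.1. Ctsb went from 753 to 1741 CPM, Ctsl from 1079 to 2396 CPM and Grn, progranulin, from 265 to 556 CPM. Lipa, the acid lipase that frees fatty acids and cholesterol from lipoprotein and droplet lipid, went from 124 to 247 CPM. Others past the limit included Gpnmb, Gla, Cd63, Psap, Atp6v1a, Lamp2 and Atp6v0d2, the last with 6 and 163 UMIs and 92.0% of them in 10 cells. Tfeb, a factor that drives lysosomal genes, was past it lower, at 11.1 and 6.89 CPM. Over the 6 libraries 21 of 26 were called higher and none lower, and 20 of these calls held in all 6 fits that left out 1 library. Among 12 measured autophagy genes Sqstm1, Map1lc3a and Gabarap were past 1.5-fold higher and 7 were called higher over the 6 libraries.

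**Figure D2:**
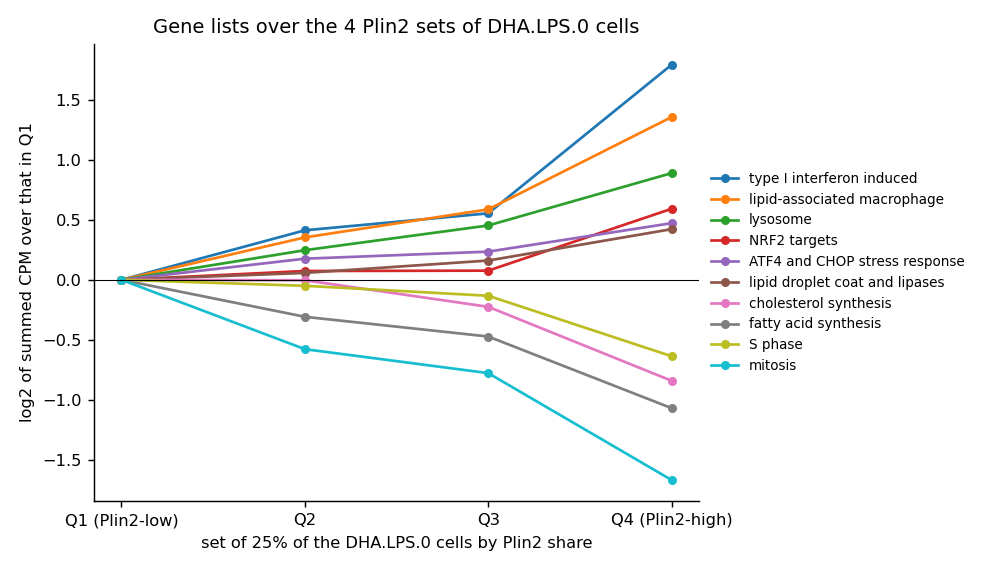
Summed CPM of 10 gene lists in the 4 Plin2 sets of DHA.LPS.0 cells (25% of the cells each), as log2 of the value over that of the Plin2-low set. The interferon, lipid-associated macrophage and lysosome lists climb toward the Plin2-high set (Q4), with smaller rises for the NRF2, ATF4 and CHOP and lipid droplet lists, and the mitosis, fatty acid synthesis, cholesterol and S phase lists descend.

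Genes known from lipid-associated macrophages, the TREM2-positive cells of fatty tissue and plaques, were higher in 9 of 12 cases, all 9 past 1.5-fold. Spp1, osteopontin, went from 2378 through 3537 and 4653 to 11520 CPM, a ratio of 4.84 (4.77 to 4.92), and the median single cell from 1154 to 7227 CPM. Gpnmb, a lysosomal glycoprotein, went from 12.3 through 19.7 and 40.5 to 102 CPM, a ratio of 8.36 (6.82 to 10.3), with a UMI in 23 low and 77 high cells. Its log2 ratio was 2.89 in Con, 3.04, 2.12 and 2.72 in Veh at 0, 1 and 4 h, and 2.57 and 3.22 in DHA at 1 and 4 h, above 2 in each. Lgals3, galectin-3, went from 1768 to 3473 CPM, Trem2 from 286 to 488 CPM and Cd9 from 292 to 456 CPM. Cd36, Ctsb, Lipa and Cd63, given above or shared with the lysosomal list, made up the 9, and Fabp5, Lpl and Apoe were the members that were not higher. The same 9 genes were called higher over the 6 libraries, led by Gpnmb (log2 2.79, adjusted p = 3.23e-06) and Trem2 (log2 0.53, adjusted p = 0.000324), and each of these calls held in all 6 fits that left out 1 library.

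Plin2-high cells held far fewer transcripts of dividing cells. All 22 mitosis genes were lower past 1.5-fold. Their median log2 ratio was -1.75, and the list summed to 3995, 2675, 2329 and 1254 CPM from the low to the high set. The median single cell held 1854 CPM of these transcripts in the low set and 284 CPM in the high set, although the ranges overlapped, with a 90th percentile of 3898 CPM in the high set. Mki67, a marker of cycling cells, went from 553 to 157 CPM and Top2a, a topoisomerase of dividing cells, from 520 to 166 CPM. Plk1 and Hmmr had the lowest ratios, 0.208 and 0.247, followed by Cenpf, Ccna2, Cdc20, Aurka, Kif23, Kif11, Ube2c, Nusap1, Aurkb, Ccnb1, Cenpe, Ccnb2, Anln, Bub1b, Birc5, Cdk1, Tpx2 and Bub1. Of 22 S phase genes 14 were past 1.5-fold lower (Uhrf1, Mcm7, Rrm1, Dtl, Clspn, Rrm2, Cdc6, Fen1, Gins2, Mcm3, Ung, Slbp, Mcm6 and Hells) and none higher. Of 10 histone genes 8 were (Hist1h1b, Hist1h2ap, Hist1h1d, Hist1h3c, Hist1h2ae, Hist2h2ac, Hist1h4d and Hist1h1a), where copies of near-identical sequence make single members uncertain. Over the 6 libraries 22 of 22 mitosis genes, 14 of 22 S phase genes and 9 of 10 histone genes were called lower and none was called higher. All 6 fits that left out 1 library kept 21 of the 22 mitosis calls, 8 of the 14 S phase calls, with 9 left without Veh.LPS.0, and all 9 histone calls.

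Because the mitotic share moved with Plin2, cells were also ranked within 10 bins of their mitosis share, a choice made after the values were seen. That share was the sum of the 22 mitosis genes themselves, Cenpf among them. Their values near 0 and lost calls under this ranking therefore follow from the matching. Genes past 1.5-fold lower then numbered 238 in place of 900, and the log2 ratios of Cenpf and Aspm turned to 0.13 and 0.04. In the 6 other libraries the same ranking called 2 of 22 S phase, none of 22 mitosis and 1 of 10 histone genes lower. The median log2 ratio was then -0.56 for cholesterol synthesis, -0.64 for fatty acid synthesis, 0.27 for NRF2 targets, 0.33 for the ATF4 and CHOP list, 0.44 for the lysosome and 0.66 for the lipid-associated macrophage genes, each on the side it had before, while that of the LXR targets turned from 0.02 to -0.36. For the 22 mitosis genes, which made the bins, it was -0.03. For the 9 macrophage markers it was 0.03 in place of 0.45. In the 6 other libraries this ranking called 3 of these markers higher and 1 lower, in place of 4 higher and 0 lower.

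Mitochondrially encoded transcripts were lower in Plin2-high DHA.LPS.0 cells. All 13 were lower, 4 of them (mt-Nd6, mt-Nd3, mt-Nd2 and mt-Nd1) past 1.5-fold, and their sum went from 82576 to 63589 CPM. This comparison lies within cells already limited to under 20% mitochondrial UMIs. No member was called over the 6 libraries, where the list median ran from -0.47 in DHA.LPS.1 to 0.05 in Con. Of 25 nuclear genes of the respiratory chain 22 were lower, 1 of them (Sdhd) past 1.5-fold, and 5 were called lower over the 6 libraries, with 2 of these calls left without Veh.LPS.0 or DHA.LPS.4 and 3 without Veh.LPS.1 or Veh.LPS.4. Of 25 hypoxia and glycolysis genes, Slc2a1 (65.1 to 132 CPM), Ero1l (169 to 335 CPM) and Ndrg1 (94.3 to 186 CPM) were past 1.5-fold higher and Pdk1 past it lower, with a median of 0.03. Over the 6 libraries 4 were called higher and 3 lower, near the 14.8% and 13.8% of all genes. Of these 7 calls, 4 held without Veh.LPS.0 or Veh.LPS.1.

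Chemokine genes differed strongly in DHA.LPS.0, but some of this rested on few cells. Of 22 measured NF-kB targets 14 were past 1.5-fold higher, and the list summed to 3717 CPM in the low set and 11980 CPM in the high set. Cxcl2 (chr5:90903899-90905938), a neutrophil attractant, had the highest ratio of all 6576 genes: it went from 6.48 through 15.8 and 25.9 to 852 CPM, a ratio of 131 (101 to 175). Of 174 cells each, 37 low and 114 high cells held a Cxcl2 UMI, the median cell of the high set was at 35.2 CPM, the highest at 20222 CPM, and 10 cells held 63.9% of its UMIs. Ccl7, a monocyte attractant, went from 15.9 to 336 CPM, Ccl2 from 508 to 2501 CPM, Ccl3 from 668 to 2393 CPM, Ccl4 from 860 to 3053 CPM and Ccl9 from 494 to 1041 CPM. Il1rn, the interleukin-1 receptor antagonist, went from 30.5 to 179 CPM and Tnf from 128 to 215 CPM. The others past the limit were Ccl5, Ptgs2, Ccl6, Cd40, Cxcl16 and Nfkbiz, and Tlr2 was past it lower. Over the 6 libraries 7 members were called higher, among them Ccl7 (log2 1.90, adjusted p = 0.000558), Il1rn (log2 1.48, adjusted p = 0.000914) and Ccl2 (log2 0.83, adjusted p = 0.00977), while Cxcl2 was not called (log2 1.09, adjusted p = 0.193). Il1a, Il1b and Cxcl16 were called lower, although Cxcl16 had 42 low and 84 high UMIs in DHA.LPS.0. Il1b, the main interleukin-1 of macrophages, had no UMI in DHA.LPS.0 and went from 1220 to 511 CPM in Veh.LPS.4 and from 680 to 334 CPM in DHA.LPS.4.

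Interferon-induced genes had the highest list median in DHA.LPS.0, 2.37 on the log2 scale over 23 genes, of which 22 were higher and 21 past 1.5-fold. Mitochondrial share also differed between the sets, and with cells ranked within 10 bins of it, a choice made after the values were seen, the median was 1.43. The list summed to 201, 267, 295 and 697 CPM from the low to the high set, with a median single cell of 181 CPM in the low and 390 CPM in the high set. Ifi202b, an interferon-induced DNA-binding protein of the AIM2-like family, went from 14.5 to 159 CPM, a ratio of 11.0 (9.13 to 13.3), with 25.7% of its Plin2-high UMIs in 10 cells. Most of the classical members were held by a handful of cells. Ifit1 went from 0.354 to 29.3 CPM with 93.7% of its UMIs in 10 cells, Cxcl10 from 3.89 to 68.5 CPM with 92.3%, Isg15 from 2.24 to 18.04 CPM with 72.1% and Oasl1 from 4.24 to 64.9 CPM with 58.2%. Others past the limit included Rsad2, Usp18, Ifit3, Oasl2, Rtp4, Ifit2, Xaf1, Ifih1, Irf7, Zbp1, Isg20, Oas1a, Dhx58, Stat2 and Ddx58, and Bst2 was the only member lower, at a ratio of 0.963. Mx1 had 1 UMI in both sets together and Mx2 was not matched. The list median was 2.72 in DHA.LPS.1 and 0.48 to 0.67 in the 5 other libraries, and 11 of 22 tested members were called higher and none lower.

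Further genes stood among the 15 highest. Procr, the endothelial protein C receptor, was 11.7-fold higher (8.32 to 16.9) at 49.6 against 4.24 CPM, and Chchd10, a mitochondrial intermembrane space protein, went from 27.2 to 171 CPM. Clec4n, the C-type lectin dectin-2, went from 7.54 to 56.2 CPM, Anpep, aminopeptidase N, from 5.30 to 38.2 CPM, Rgs1, a brake on chemokine receptor signalling, from 34.1 to 212 CPM, and Qpct, which cyclizes N-terminal glutamine of chemokines, from 14.5 to 75.3 CPM. All 6 were called higher over the 6 libraries, with adjusted p from 0.000161 for Anpep to 0.00698 for Chchd10. In all, 14 of the 15 highest genes were called higher, all but Cxcl2.

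The 15 lowest genes were mostly those of division: Aspm, Kif20a, Hmmr, Ect2, Cenpf, Prc1, Hist1h1b, Ccna2, Cdc20 and Aurka, with Lmnb1, the lamin B1 gene. The other 4 were Trim59, Kbtbd11 (33.4 to 5.03 CPM), Scd2 and Cx3cr1, the fractalkine receptor of macrophages (67.8 to 18.6 CPM, called lower at an adjusted p of 0.0055). All 15 were called lower over the 6 libraries. When cells were ranked within bins of mitosis share, 12 of the 15 lost the call, Trim59 (adjusted p = 0.444), Lmnb1 (adjusted p = 0.0756) and Scd2 (adjusted p = 0.0654) among them, and Cx3cr1, Hist1h1b and Kbtbd11 kept it. Hmmr, Cenpf, Ccna2, Cdc20 and Aurka are among the genes that made these bins, so their loss follows from the matching. The sizes moved unequally. Over the 6 libraries Scd2 went from -0.55 to -0.49 on the log2 scale, Trim59 from -0.56 to -0.08 and Lmnb1 from -0.72 to -0.21. In DHA.LPS.0 the log2 ratio of Scd2 went from -2.27 to -1.78. Kbtbd11 (adjusted p = 0.0469), Scd2 and Cdc20 each lost the call in some fits that left out 1 library, Kbtbd11 without Veh.LPS.0, Veh.LPS.1, Veh.LPS.4 or DHA.LPS.4 and Cdc20 without Veh.LPS.1, Veh.LPS.4 or DHA.LPS.4.

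**Figure D3:**
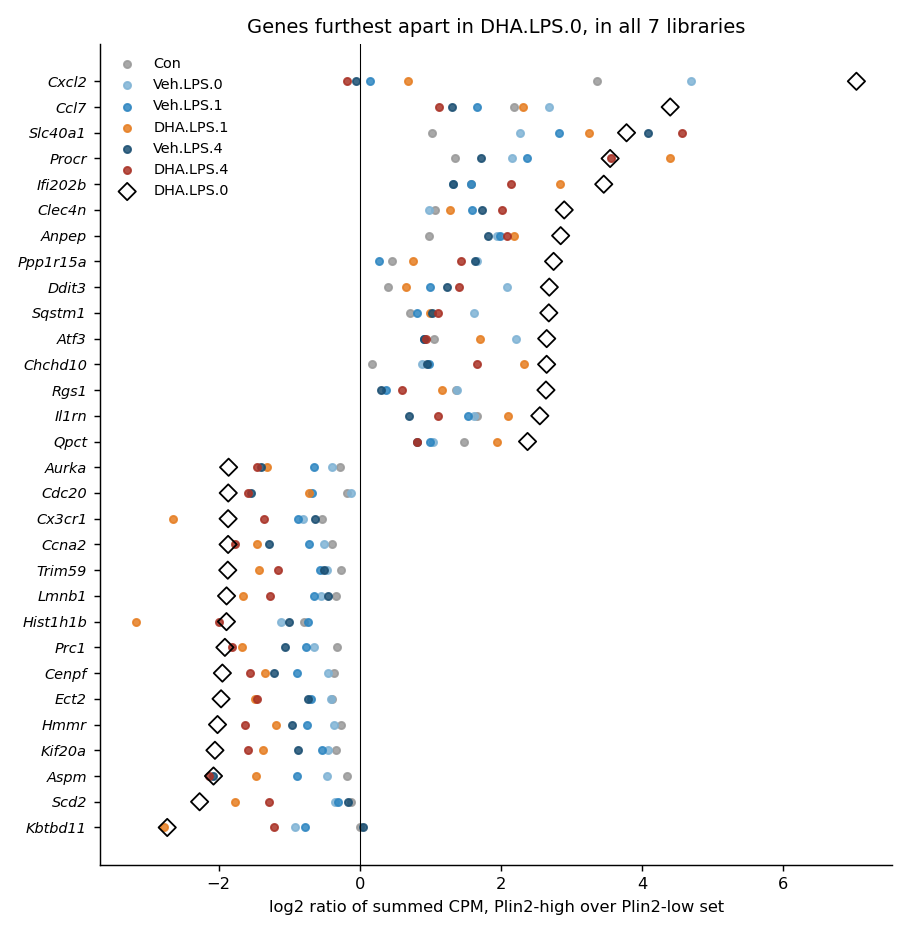
Log2 ratio of CPM, Plin2-high over Plin2-low cells, for the 15 highest and 15 lowest genes of DHA.LPS.0 (open diamonds) and for the same genes in the 6 other libraries (dots). Most dots lie on the side of their diamond, and the dots of Cxcl2 split into Con and Veh.LPS.0, above 3, and the LPS libraries, near 0.

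Across all 6576 genes the log2 ratios of DHA.LPS.0 and of each other library were correlated over genes, which share libraries' depth and the ranking gene and are not independent: Pearson's r was 0.86 with DHA.LPS.1, 0.85 with Veh.LPS.0, 0.82 with Veh.LPS.1, 0.71 with DHA.LPS.4, 0.66 with Con and 0.59 with Veh.LPS.4. Each library was also counted over its own genes past the limit on cells. More than 1.5-fold lower were 792 of 5748 genes in DHA.LPS.1 and 363 of 4504 in DHA.LPS.4. In Con it was 6 of 5959, and in Veh at 0, 1 and 4 h it was 44 of 5892, 53 of 4924 and 53 of 5754. The higher direction did not divide the libraries in this way, with 387 genes in DHA.LPS.1 and 233 in DHA.LPS.4 against 46 in Con, 94 in Veh.LPS.0, 73 in Veh.LPS.1 and 245 in Veh.LPS.4. Of the 900 genes lower in DHA.LPS.0, 618 were past the limit in DHA.LPS.1 and 401 in DHA.LPS.4. In Con it was 3, and in Veh at 0, 1 and 4 h it was 37, 62 and 80. By sign alone, 85.3% of the 900 were lower in Con and 95.1%, 97.4% and 78.0% in Veh at 0, 1 and 4 h. Of all 6576 genes, 42.8% were higher in Con and 45.0%, 38.4% and 52.9% in these Veh libraries. The sets of Con and Veh cells rested on 1 to 3 Plin2 UMIs in the median cell, with the Con low set cut by file order. Cells per set numbered 198 in DHA.LPS.1 and 173 in DHA.LPS.4, against 727 in Con and 620, 768 and 248 in Veh at 0, 1 and 4 h. The share of barcodes with 20% or more mitochondrial UMIs differed as well, as given above. The part of these differences in the counts was not tested.

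**Figure D4:**
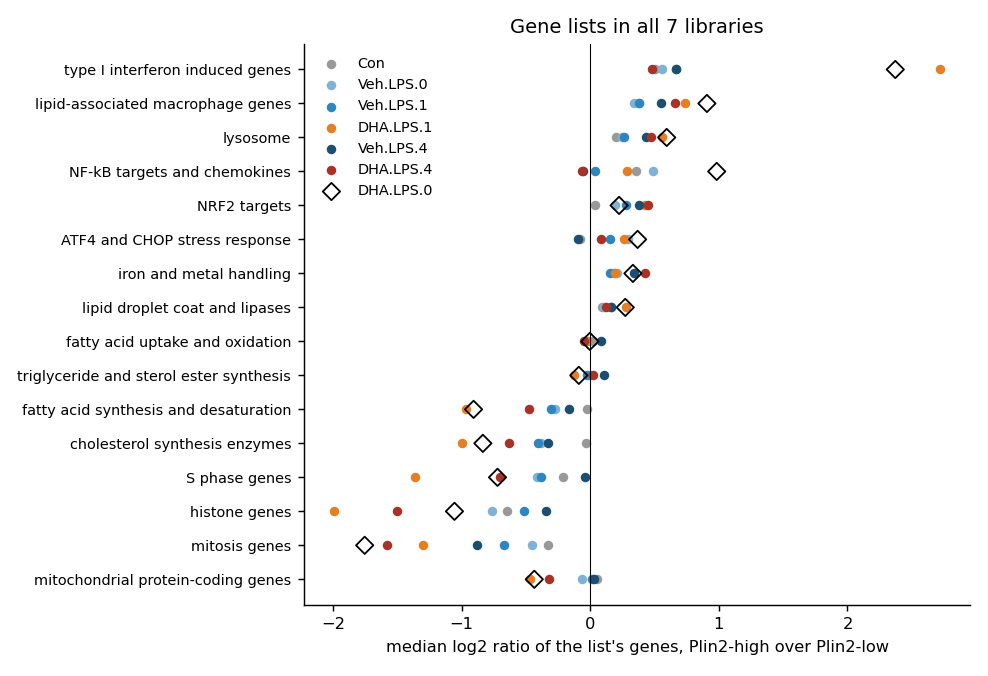
Median log2 ratio, Plin2-high over Plin2-low cells, of 16 gene lists in each of the 7 libraries. The lysosome and lipid-associated macrophage lists lie above 0 and the cholesterol and mitosis lists below 0 in all 7, with the cholesterol list between -0.03 in Con and -0.998 in DHA.LPS.1. The median of all genes was -0.03 in Con as well and -0.15 in DHA.LPS.1.

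Some genes too sparse for the limit on cells in DHA.LPS.0 had the largest differences over the 6 other libraries. Car6, a secreted carbonic anhydrase, was first, by 6.0 on the log2 scale (adjusted p = 1.76e-06), and held 9 UMIs in low and 315 in high DHA.LPS.0 cells, 1.06 and 34.4 CPM. It was followed by Ptpn14 (4.05), Avil (3.96), Basp1 (3.90), Fam171b (3.67), Gm5416 (3.42), Gm5483 (3.36), Gprc5a (2.97), Ccl5 (2.89) and Gpnmb (2.79). Ptpn14 had 0 and 44 UMIs in low and high DHA.LPS.0 cells and Avil, an actin-binding villin relative, 24 and 201. Basp1 had 0 and 259, but 96.9% of them in 10 cells, and Gm5416 had none. Ccl5, a T cell attractant, went from 9.20 to 185 CPM with 95.1% of its UMIs in 10 cells. Gm5416 lost its call without Veh.LPS.4 or DHA.LPS.4, and Gprc5a without DHA.LPS.4. The 10 lowest were Il4i1 (-1.64), Areg (-1.40), Hist1h1b (-1.35), Cd69 (-1.21), Ighm (-1.16), Hist1h2bm (-1.14), Csf2 (-1.09), Fnbp1l (-1.07), Il1b (-1.06) and Vmn2r90 (-1.05). Areg, Csf2, Il1b and Vmn2r90 had no UMI in the DHA.LPS.0 sets, and Cd69 and Il4i1 had at most 5 in either. Fnbp1l went from 63.2 to 18.4 CPM and Ighm from 14.03 to 1.86 CPM in DHA.LPS.0. Areg, Cd69 and Vmn2r90 lost their calls without Veh.LPS.1, and Csf2 and Il4i1 without Veh.LPS.4.

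Whether the difference between Plin2-high and Plin2-low cells itself differed between libraries was tested after the values were seen, as an interaction in the same edgeR model. Between the LPS libraries and those without LPS, 1 of 10833 genes (0.00923%) had a smaller difference and none a larger one, with 646 genes at an unadjusted p under 0.05. With DHA.LPS.0 outside the fit, the libraries without LPS were Con, in 10% FBS, and Veh.LPS.0, and 2 of the 4 LPS libraries had DHA, so that LPS cannot be told apart from serum and DHA in this contrast. That gene was Cxcl2, by -4.14 on the log2 scale (adjusted p = 0.00941), called in 3 of 6 fits that left out 1 library and lost without Veh.LPS.0, Veh.LPS.1 or DHA.LPS.4. Its low and high sets held 13.0 and 336 CPM in Veh.LPS.0, and the log2 ratio was 4.69 there and 3.35 in Con. After LPS both sets were high in Cxcl2, at 7177 and 7918 CPM for Veh.LPS.1, at 5202 and 8342 CPM for DHA.LPS.1, at 13389 and 12880 CPM for Veh.LPS.4 and at 13417 and 11804 CPM for DHA.LPS.4. The log2 ratios of these 4 libraries lay between -0.18 and 0.68, below those of the 3 libraries without LPS.

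Between the DHA and the Veh libraries in 0.25% FBS, DHA.LPS.0 left out, 24 of 10642 genes (0.226%) had a larger difference with DHA and 18 (0.169%) a smaller or more negative one, with 1494 at an unadjusted p under 0.05. On the log2 scale, the larger ones included Klf2 (1.98), Prdx1 (1.06), Cd36 (1.53), Lgals3 (0.71), Ctsl (0.57), Ctsd (0.56), Procr (1.92), Chchd10 (1.23) and Ifi202b (1.21). The smaller or more negative ones included Bglap2 (-4.37), Scd2 (-1.21), Mki67 (-0.99), Top2a (-0.92), Kif11 (-0.99), Lmnb1 (-0.83), Hist1h1d (-1.90) and Mcm3 (-0.82). Bglap2 had log2 ratios of 3.70, 3.97 and 6.33 in Veh at 0, 1 and 4 h, and -0.02 and 0.72 in DHA at 1 and 4 h. These counts depended on single libraries: without Veh.LPS.1 no gene was called, without Veh.LPS.0 it was 4 and 3, without DHA.LPS.1 it was 5 and 3, without Veh.LPS.4 it was 15 and 13, and without DHA.LPS.4 it was 71 and 51. The 2 DHA and 3 Veh libraries also differed in Plin2 UMIs per cell and in the share of barcodes with 20% or more mitochondrial UMIs, as given above. The part of either in the difference was not tested.

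In Veh.LPS.0, the library without DHA collected at the same hour, the sets of 620 cells each gave ratios nearer to 1 than DHA.LPS.0 for each of the 9 genes plotted. These 9 were picked for display and not by a rule, and Gpnmb was nearly equal, at log2 3.04 and 3.06. Car6 (5.93 and 5.02) and Avil (3.39 and 2.96) went the other way, on 4 and 8 UMIs in the Veh.LPS.0 low set. The median Veh.LPS.0 cell held 2 Plin2 UMIs. Summed Plin2 was 8.11 CPM in the Veh.LPS.0 low set and 153 CPM in its high set. That high set lay near the second-lowest set of DHA.LPS.0 (159 CPM) and far below its Plin2-high set (1090 CPM). The sets of the 2 libraries are therefore not alike in Plin2, and the part of this in the ratios was not tested. Spp1 went from 4220 to 11033 CPM there and from 2378 to 11520 CPM in DHA.LPS.0. Sqstm1 went from 95.2 to 291 CPM and Hmox1 from 52.0 to 106 CPM in Veh.LPS.0. Fth1 went from 9481 to 15596 CPM, and its Plin2-low DHA.LPS.0 cells, at 12572 CPM, lay between these values. Scd2 went from 403 to 316 CPM in Veh.LPS.0, so that Plin2-low DHA.LPS.0 cells, at 297 CPM, lay close to Plin2-high vehicle cells. Hmgcs1 went from 134 to 85.9 CPM and Mki67 from 569 to 366 CPM. For Mki67, Plin2-low DHA.LPS.0 cells (553 CPM) lay near Plin2-low vehicle cells, and Plin2-high DHA.LPS.0 cells (157 CPM) lay below both vehicle sets. These levels are from 1 library each and have no replicate check. The 2 libraries also differed in the share of barcodes with 20% or more mitochondrial UMIs, 37.8% in Veh.LPS.0 and 76.4% in DHA.LPS.0.

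**Figure D5:**
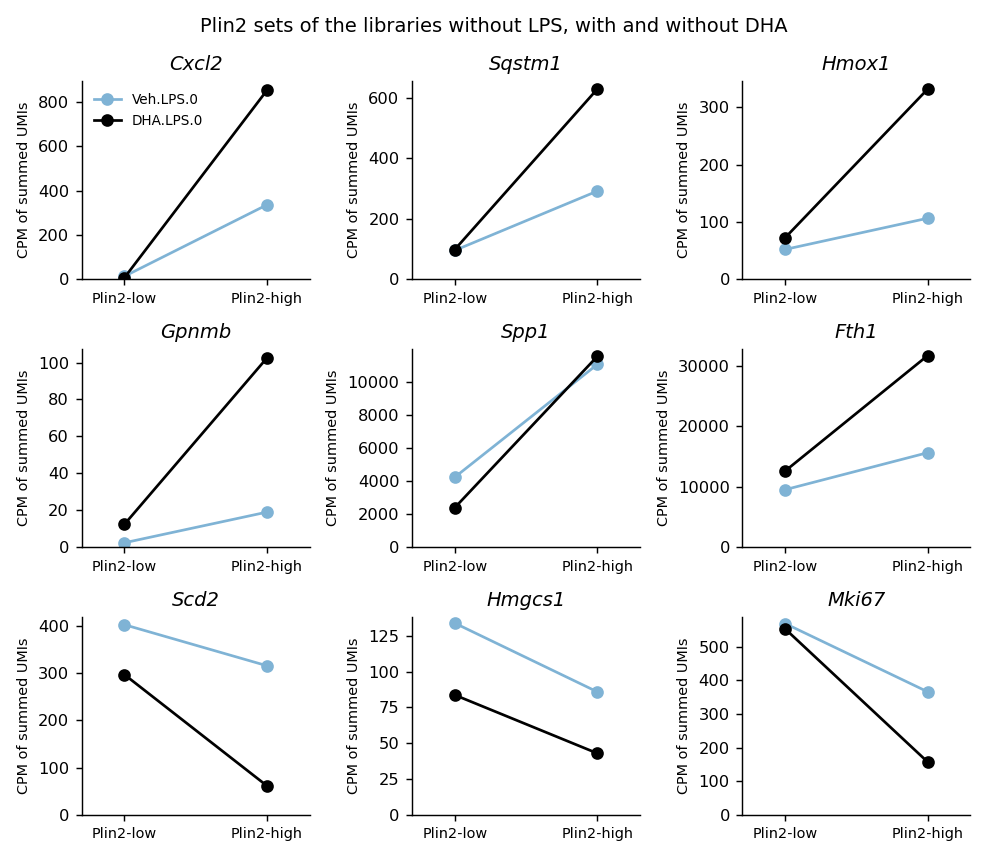
CPM of 9 genes in the Plin2-low and Plin2-high sets of Veh.LPS.0 and DHA.LPS.0 cells. For Scd2, Hmgcs1 and Mki67 the Plin2-high DHA.LPS.0 cells hold the lowest value of the 4 sets, and for Cxcl2, Sqstm1, Hmox1, Gpnmb, Spp1 and Fth1 the highest.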

How the data were processed

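FLMs from 7 conditions were profiled with the 10x 3' kit (v3 chemistry), 1 library each. The authors deposited raw UMI counts per gene and barcode, made with Cell Ranger 3.1.0 on mm10 per the submitters' processing notes, without normalization. Barcodes were kept with over 20000 UMIs, at least 2000 genes and under 20% mitochondrial UMIs, as in the study. No doublet caller was run, and leaving out the 5% of cells with the most UMIs was an alternative. DHA.LPS.0 held 35027812 UMIs in 698 cells, and the 7 libraries 466508896 UMIs in 11640 cells. Groups came from the treatment labels.

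UMIs were summed per set of 25% of the cells in the Plin2 ranking and scaled to CPM, with Plin2 left out of the genes compared. Ratios have exact Clopper-Pearson 95% intervals, which cover counting error only. Genes had to be detected in 50% or more of the cells of 1 or both sets, and list members needed 10 UMIs in both sets together. Since cells of 1 library are not replicates, genes in DHA.LPS.0 were counted by size (1.5-fold, or 0.32 on the log2 scale). The 6 other libraries were tested with edgeR 4.0.16 (quasi-likelihood, library as block, TMM, R 4.3.3) and Benjamini-Hochberg adjustment, with DESeq2 1.42.0 as an alternative. The labels do not say whether libraries came from separate cultures, so p-values measure only the spread between these libraries. The high and low sets of a library are paired by that library, which is why the block is in the model. The tests were run on simulated data first.

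The members and the gene lists were chosen with earlier results of these data known. Named genes were the 15 highest and 15 lowest by ratio in DHA.LPS.0, the 10 largest differences in each direction over the 6 libraries, and list members past 1.5-fold, some of which are not reported here. Leaving out genes named only as list members, there were 50 named genes, Plin2 included. Of these, 46 matched RefSeq (GRCm38.p6, the mm10 build), which gave the coordinates. Alternatives covered depth, the cut (3 or 10 sets in place of 4), the limits on cells, scaling, the limit on the share of cells, each library left out and, added after seeing the data, ranking within 10 bins of mitosis or mitochondrial share and leaving out the 10% of cells with the most Plin2. Python 3.11.15, numpy 2.4.6, scipy 1.17.1, pandas 2.3.3 and matplotlib 3.10.9 were used.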

Additional observations from a re-analysis of the deposited data

Results flagged for a closer look

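For 6 of the named genes the difference between Plin2-high and Plin2-low cells itself differed between groups of libraries in the interaction test of edgeR (adjusted p under 0.05), and no explanation was tested. Cxcl2 had a smaller difference in the LPS libraries than in those without LPS, by -4.14 on the log2 scale (adjusted p = 0.00941), in a contrast that also mixes serum and DHA. Between the DHA and the Veh libraries in 0.25% FBS, the difference was more negative with DHA for Scd2, by -1.21 (adjusted p = 0.017), and for Lmnb1, by -0.83 (adjusted p = 0.0329). It was larger with DHA for Procr, by 1.92 (adjusted p = 0.0301), for Chchd10, by 1.23 (adjusted p = 0.0329), and for Ifi202b, by 1.21 (adjusted p = 0.0491). Of 5 fits that each left out 1 library, 3 kept the call of Scd2 and 1 kept that of each of Lmnb1, Procr, Chchd10 and Ifi202b, and no call was kept without Veh.LPS.1.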

How the results depend on the processing

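The counts of genes past 1.5-fold in DHA.LPS.0 depended on how cells and genes were taken. Of 345 list medians under the alternatives run, 327 kept their sign. Signs of the named genes were largely fixed by choosing them as the highest and lowest, and those of Cenpf (0.13) and Aspm (0.0435) turned with cells ranked within 10 bins of mitosis share. Against 481 higher and 900 lower genes (935 and 2152 at the log2 limit of 0.32), thinning each cell to 20000 UMIs gave 308 and 547 (598 and 1277) among 4014 genes, 10 sets in place of 4 740 and 1934, TMM scaling 528 lower (1428 and 1358), no limit on the share of cells 1169 and 1954 (1993 and 3912) among 10966 genes, ranking within 10 bins of mitosis share 238 lower (1154 lower), and leaving out the 10% of cells with the most Plin2 311 and 441. Without those cells the log2 ratio of Cxcl2 was 3.93 in place of 7.04.

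In the test over the 6 other libraries, against 1602 and 1495 calls, the fit with no replicate block for the library, which ignores the pairing of the sets, called 1 gene higher and 0 lower by edgeR, with 572 higher and 208 lower at an unadjusted p under 0.05. Leaving out 1 library gave 1095 to 1573 higher and 875 to 1492 lower, with both lowest without Veh.LPS.1. The other 2 DHA libraries alone gave 754 and 650, thinned cells 771 and 654, and ranking within 10 bins of mitosis share 850 lower, and DESeq2 gave 1435 and 1518. Of 3097 calls, 1724 held in all 6 fits that left out 1 library. The causes of these moves were not tested. Some of the settings also had fewer genes or libraries. Genes with under 10 UMIs in both sets, among them 9 droplet genes, could not be compared at this depth.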
